A study of Mus musculus with 16 samples.

Results

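The glucocorticoid receptor gene Nr3c1 and 5 genes that glucocorticoids induce (Tsc22d3, Fkbp5, Per1, Sgk1 and Klf9) were followed in RNA sequencing of mouse thymocytes. These 6 genes were taken by symbol from 55335 gene identifiers in the libraries with a stated age and 54532 in the others, and all 6 had enough reads to be tested in each comparison. The cells are double-positive (DP) thymocytes, which carry both CD4 and CD8, sorted by flow cytometry from thymus. The 16 libraries fall into 5 groups: young wild type (WT, 3), old WT (4) and young METTL3 knockout (KO, 3), and a second set of WT (3) and METTL3 KO (3) whose labels give no age. METTL3 is the methyltransferase that writes N6-methyladenosine on RNA. The labels give ages only as young or old, and they name no strain, no Cre driver, no deleted exon and no treatment. Nor do they say whether each library came from a separate animal, so each p-value speaks only to the spread among these libraries, which may be technical.

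Glucocorticoids enter the cell and bind the receptor, which is held ready by Hsp90 and its co-chaperones and then moves to the nucleus. There it binds paired hexamers of DNA, the glucocorticoid response elements, and switches on genes that differ between tissues. DP thymocytes are among the cells most readily killed by glucocorticoids, and stress hormones shrink the thymus mainly through them. Among the induced genes, Tsc22d3 encodes GILZ, a leucine zipper protein that restrains inflammatory transcription factors. Fkbp5 encodes a co-chaperone that lowers the receptor's hormone binding in a feedback loop. Per1 is a component of the circadian clock, Sgk1 a serum and glucocorticoid regulated kinase, and Klf9 a zinc finger transcription factor.

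Bases upstream of start sites of these genes are shown because the receptor acts through DNA at such sites. RefSeq start sites (GRCm38.p6, the same coordinates as mm10) gave 13 promoters of 300 bases for the 5 induced genes: 3 for Tsc22d3, 1 for Fkbp5, 2 for Per1, 6 for Sgk1 and 1 for Klf9. Both strands were searched for the palindromic element (GNACA and TGTNC with any 3 bases between), its single hexamer AGAACA, the clock E-box CACGTG and the cyclic AMP response element TGACGTCA. The first 100 bases of the window, which begins 250 bases before a start site, are printed for 1 promoter each of 4 genes, with matches in capitals. Each printed window holds a match, so the 4 do not stand for all 13 promoters. The Klf9 promoter held no match, and 1 of 3 Tsc22d3 and 1 of 2 Per1 promoters held one. None of the 4 windows overlaps an annotated exon of its gene.
Sgk1, chr10:21993640-21993739, plus strand: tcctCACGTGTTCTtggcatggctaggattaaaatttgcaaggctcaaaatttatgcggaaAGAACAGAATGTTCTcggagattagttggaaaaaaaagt
Tsc22d3, chrX:140600673-140600772, minus strand: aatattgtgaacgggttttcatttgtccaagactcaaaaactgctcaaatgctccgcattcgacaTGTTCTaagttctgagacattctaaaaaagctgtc
Fkbp5, chr17:28486300-28486399, minus strand: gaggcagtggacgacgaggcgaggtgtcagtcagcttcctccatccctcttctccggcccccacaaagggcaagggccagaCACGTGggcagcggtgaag
Per1, chr11:69098699-69098798, plus strand: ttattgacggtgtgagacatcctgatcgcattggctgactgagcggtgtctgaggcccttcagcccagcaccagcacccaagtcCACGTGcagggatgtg
The Sgk1, Fkbp5 and Per1 windows lie inside their genes, 5′ of internal starts, and the Tsc22d3 window lies outside its gene. In the Sgk1 window the second run of capitals holds the palindromic element and the hexamer on each strand, which overlap it. The first run is an E-box that overlaps a hexamer. The element begins 188 bases before its own start site and 964 bases before the next start site downstream. It was the only palindromic element in the 13 promoters, and 0.475% of 32851 RefSeq promoters of this length held a match. The hexamer stood in 4 of the 13 promoters (19.0% of all promoters), the E-box in 3 (7.15%) and the cyclic AMP element in 0 (1.79%). Such matches describe letters in these windows only.

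Some features of the whole series bear on the values below. Gene counts summed to 9781368 to 10307780 per library with an age, 15927134 to 16167074 in WT without an age and 10575795 to 13740694 in KO without an age. Mettl3, the targeted gene, averaged 63.8 ± 3.66 CPM (SD, n = 3) in young WT and 63.7 ± 1.33 (n = 3) in the libraries labelled young KO, a log2 difference of -0.0022 ± 0.085 (SE, edgeR adjusted p = 1). Without an age it was 45.1 to 54.5 CPM in WT and 27.0 to 38.6 in KO (log2 difference -0.58 ± 0.18, adjusted p = 0.0189). CPM are read counts scaled by TMM to a common library size. The label young KO was thus not mirrored in the Mettl3 total; the deleted exon, as noted, is not named. All 12 DP marker genes were present in each library. Old WT replicate 3 held far more RNA of other cells than the rest: its 11 myeloid markers summed to 328.8 CPM against 42.9 to 51.3 in the other old WT libraries, and its 13 B cell markers to 2152 against 491.5 to 1015. In KO without an age, the 12 DP markers summed to 10830 to 13640 CPM against 19760 to 21570 in WT. There, 27.3% to 29.5% of all entries lay in genes, against 37.0% to 37.3% in WT.

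Per kilobase of exon, the 6 genes fell into 3 tiers in young WT. Tsc22d3 stood at 63.9 ± 29.0 CPM per kb (SD, n = 3), Fkbp5 at 50.2 ± 9.91 and the receptor gene Nr3c1 at 44.8 ± 8.59, and these neighbours lay within their spread. Per1 (9.30 ± 2.65) and Sgk1 (7.53 ± 0.511) followed and did not differ beyond their spread, and Klf9 was far lower at 0.317 ± 0.116. In old WT (n = 4) the order at the top was turned, with Nr3c1 at 38.1 ± 6.40, Fkbp5 at 35.6 ± 8.35 and Tsc22d3 at 28.1 ± 3.72 CPM per kb, again with ranges that overlap. The lower tiers kept their places in old WT and young KO.

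**Figure D1:**
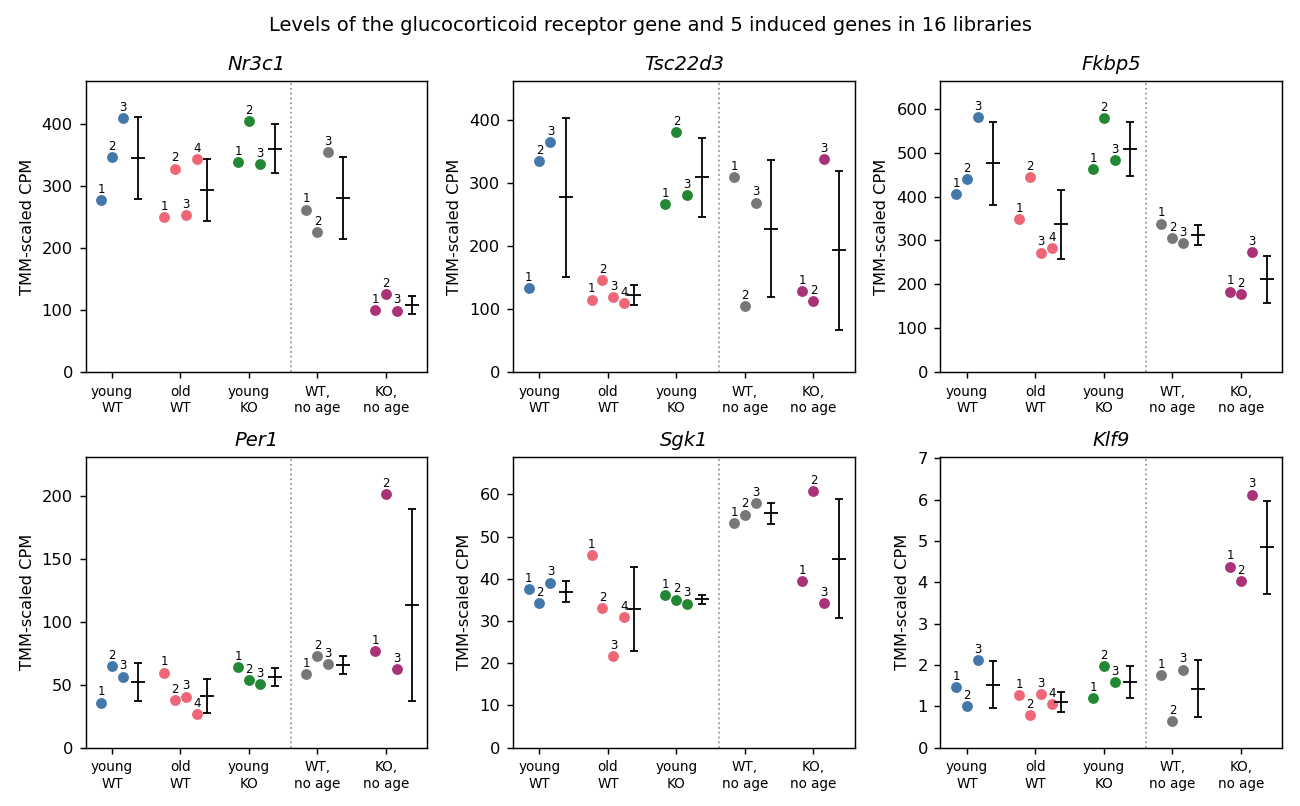
TMM-scaled CPM (vertical axis, linear from 0) of each gene in the 16 libraries, by group (horizontal axis), with replicate numbers above the points and the mean ± SD beside each group; the dotted line parts the libraries with an age from those without. Tsc22d3 spans 132.9 to 364.7 CPM within young WT, Nr3c1 is lower in all 3 KO libraries without an age than in their WT, and Per1 reaches 201.7 CPM in 1 KO library.

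Nr3c1 (ENSMUSG00000024431, mm10 chromosome 18, 39410545 to 39519421, minus strand) encodes the receptor itself. In replicate order it was 277.2, 345.8 and 409.1 CPM in young WT and 249 to 343.1 (median 289.9) in the 4 old WT libraries. In young KO it was 338.3, 404.5 and 335.2 CPM. The 3 groups overlapped, and 2 of the 4 old libraries lay below every young WT library. The log2 difference was -0.23 ± 0.15 for old against young WT (95% interval -0.56 to 0.09, adjusted p = 0.547) and 0.06 ± 0.16 for young KO against young WT (-0.28 to 0.41, adjusted p = 1).

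In the set without an age Nr3c1 was 261.6, 225.4 and 354.3 CPM in WT and 99.8, 125.3 and 98.8 in KO. All 3 KO libraries lay below all 3 WT libraries, and the receptor gene fell 2.60-fold (log2 change -1.38 ± 0.19, 95% interval -1.80 to -0.96, adjusted p = 0.000246). In this comparison 53.9% of the 16432 genes tested were called, 24% as lower, so a called fall was common. Nr3c1 kept its call in all 14 alternatives run, with log2 changes of -1.58 to -1.23. The KO difference without an age was lower than that in young libraries by 1.27 ± 0.24 on the log2 scale, tested as an interaction (-1.27, adjusted p = 0.00111), in a test that called 36.9% of 16557 genes.

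Tsc22d3 (ENSMUSG00000031431, chromosome X, 140539528 to 140600659, minus strand) spread widely within young WT. It was 132.9, 334.4 and 364.7 CPM in young WT and 115.1, 145.5, 119.1 and 108.9 in old WT. The ranges thus met only through young WT replicate 1, and 3 of 4 old libraries lay below all young ones. By Xist and Y-linked reads, young WT replicate 1 was female and the other 2 male, and old WT held 2 of each. The log2 difference with age was -1.18 ± 0.30 (2.27-fold lower in old WT, 95% interval -1.86 to -0.50, unadjusted p = 0.0034), and it did not pass over all genes (adjusted p = 0.237). Without young WT replicate 1 it was called (-1.52, adjusted p = 0.00162), and DESeq2 called it with every library (-1.19, adjusted p = 0.0462). Without any other library the adjusted p lay between 0.161 and 0.774, and the log2 difference without old WT replicate 3 was -1.17. Settings other than a left-out library, sex as a covariate among them, gave log2 differences of -1.197 to -1.048.

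In young KO, Tsc22d3 was 266.3, 380.9 and 280.4 CPM, all above young WT replicate 1 and around the other 2 (log2 difference 0.16 ± 0.32, interval -0.57 to 0.89, adjusted p = 1). Without an age it was 309.0, 104.2 and 269.0 CPM in WT and 128.7, 112.6 and 338.0 in KO. Each group there held libraries at both ends,,  and the log2 difference of -0.24 ± 0.54 had a wide interval, from -1.53 up to a 95% limit above 1 (adjusted p = 0.74). Leaving out 1 library gave -0.98 (without KO replicate 3) to -0.0023 (without WT replicate 1), and sex as a covariate turned it to 0.57 (adjusted p = 0.454).

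Fkbp5 (ENSMUSG00000024222, chromosome 17, 28399094 to 28517527, minus strand) stood at 405.1, 439.5 and 582.1 CPM in young WT and 348.6, 444.1, 272.4 and 282.6 in old WT. Only old WT replicate 2 reached into the young range. The log2 difference was -0.50 ± 0.17 (1.41-fold lower, 95% interval -0.87 to -0.12, unadjusted p = 0.0138, adjusted p = 0.322), and no alternative called it (adjusted p 0.112 to 0.82). In young KO it was 462.6, 579.2 and 483.4 CPM, within the range of young WT (0.10 ± 0.19, adjusted p = 1).

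Without an age, Fkbp5 was 338.7, 306.0 and 293.5 CPM in WT and 183.5, 178.1 and 273.1 in KO. The 2 groups did not overlap, as in 63.8% of the genes tested there, and Fkbp5 fell 1.48-fold (log2 change -0.56 ± 0.18, adjusted p = 0.0221). The call was lost without WT replicate 1 (adjusted p = 0.0624) or KO replicate 1 (0.0781). Without KO replicate 3 the change was -0.86 (adjusted p = 0.000283). Xist and Y-linked reads marked 2 of these 3 KO libraries as female and 3 of 3 WT libraries as male, and with sex as a covariate the difference was -0.20 (adjusted p = 0.332). The test of unequal KO differences between the sets gave -0.50 ± 0.23 (adjusted p = 0.106). It was called in 6 of 20 alternatives: with no filter on low counts (-0.75, adjusted p = 0.00057), and without young WT replicate 3 (0.00763), young KO replicate 1 (0.0247) or 3 (0.0311), or KO without an age replicate 2 (0.0483) or 3 (-0.90, adjusted p = 0.000956).

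Per1 (ENSMUSG00000020893, chromosome 11, 69095217 to 69109960, plus strand) was 35.8, 64.8 and 56.5 CPM in young WT, 59.7, 38.1, 40.6 and 26.6 in old WT. It stood at 64.0, 53.9 and 50.5 CPM in young KO. The groups overlapped (old against young WT -0.35 ± 0.26, adjusted p = 0.613; young KO against young WT 0.10 ± 0.27, adjusted p = 1). Without an age it was 58.6, 73.0 and 66.6 CPM in WT and 76.6, 201.7 and 62.5 in KO. A single library, KO replicate 2, stood apart: the log2 difference was 0.78 ± 0.37 with it (adjusted p = 0.1) and -0.0072 without it (adjusted p = 0.976). In DESeq2 the difference with that library was called (0.80, adjusted p = 0.0469).

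The same library held the highest sum of 21 handling and immediate-early genes, which respond within minutes to signals and to cell isolation. That sum was 4524 CPM in KO replicate 2, 1415 and 1556 in KO replicates 1 and 3, and 2649 to 3079 in WT. Fos was 274.6 CPM in KO replicate 2, 70.4 and 47.4 in the other KO libraries, and 180.9, 187.5 and 159.4 in WT. Dusp1, a phosphatase that glucocorticoids also induce, was 249.3 in KO replicate 2, 42.9 and 36.2 in the other KO libraries, and 144.1, 199.0 and 180.5 in WT. Some of the 21 genes did not peak in KO replicate 2. In KO replicate order Egr2 was 15.3, 10.9 and 11.1 CPM and Egr3 6.69, 4.465 and 4.84, both highest in replicate 1. Per1 is itself known to respond to cyclic AMP and calcium signals. The part of these genes in the Per1 level was not tested.

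Sgk1 (ENSMUSG00000019970, chromosome 10, 21882184 to 21999903, plus strand) was even among young libraries, at 37.5, 34.2 and 39.1 CPM in WT and at 36.1, 35.1 and 34.1 in KO. In old WT it ranged from 21.6 (replicate 3) to 45.6 CPM (replicate 1), with 33.1 and 30.9 between. The log2 difference was -0.17 ± 0.18 for age (adjusted p = 0.741), or -0.013 without old WT replicate 3, and -0.07 ± 0.20 for young KO (adjusted p = 1). Without an age it was 53.2, 55.2 and 58.0 CPM in WT and 39.4, 60.7 and 34.2 in KO, where replicate 2 was again the highest. The difference of -0.31 ± 0.21 did not pass (adjusted p = 0.235), and without KO replicate 2 it was called (-0.67, adjusted p = 0.00788). Without the low-count filter it was called too (-0.48, adjusted p = 0.0471) as it was with sex as a covariate (-0.70, adjusted p = 0.0342). The interaction was -0.06 ± 0.25 (adjusted p = 0.89), and without KO replicate 2 it was called (-0.55, adjusted p = 0.0118).

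Klf9 (ENSMUSG00000033863, chromosome 19, 23141226 to 23168134, plus strand) was near the floor of detection. Its counts were 15, 10 and 21 in young WT, 13, 8, 12 and 11 in old WT, with 12, 20 and 16 in young KO, or 0.793 to 2.12 CPM over these 10 libraries. The groups overlapped (age -0.46 ± 0.35, adjusted p = 0.615; young KO 0.06 ± 0.36, adjusted p = 1). Without an age it was 1.76, 0.636 and 1.89 CPM in WT (27, 10 and 29 counts) and 4.38, 4.03 and 6.12 in KO (53, 46 and 81 counts). All KO libraries lay above all WT libraries, as for 34.3% of the genes tested.

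Klf9 rose 3.38-fold in KO without an age (log2 change 1.76 ± 0.46, 95% interval 0.75 to 2.77, adjusted p = 0.00749), and 29.9% of genes were called higher in that comparison. The call held in all 14 alternatives, with log2 changes of 1.35 to 2.09. The difference from young KO was 1.87 ± 0.58 (adjusted p = 0.021), which did not pass without young WT replicate 1 (0.0687) or 3 (0.136), young KO replicate 1 (0.0996) or 3 (0.077), or KO without an age replicate 3 (0.0573). In the same KO libraries markers of some other cells were called higher: 9 of 11 tested B cell genes, 7 of 9 dendritic genes and 5 of 8 epithelial and stromal genes. Beside 29.9% of all genes, it was 3 of 10 for myeloid genes and 3 of 9 for NK, NKT and gamma-delta genes. Of 15 mature thymocyte genes 1 was higher and 2 lower, of 2 erythroid genes 1 was lower, and of 12 DP genes 7 were lower. Summed B cell markers were 750.8 to 1174 CPM in KO and 536.6 to 635.8 in WT. Summed epithelial and stromal markers were 130.8 to 159.1 CPM in KO and 150.8 to 174.9 in WT. The part of other cells in the Klf9 and Nr3c1 values was not tested, and in sorted bulk RNA fewer cells of a type and less RNA per cell cannot be told apart.

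**Figure D2:**
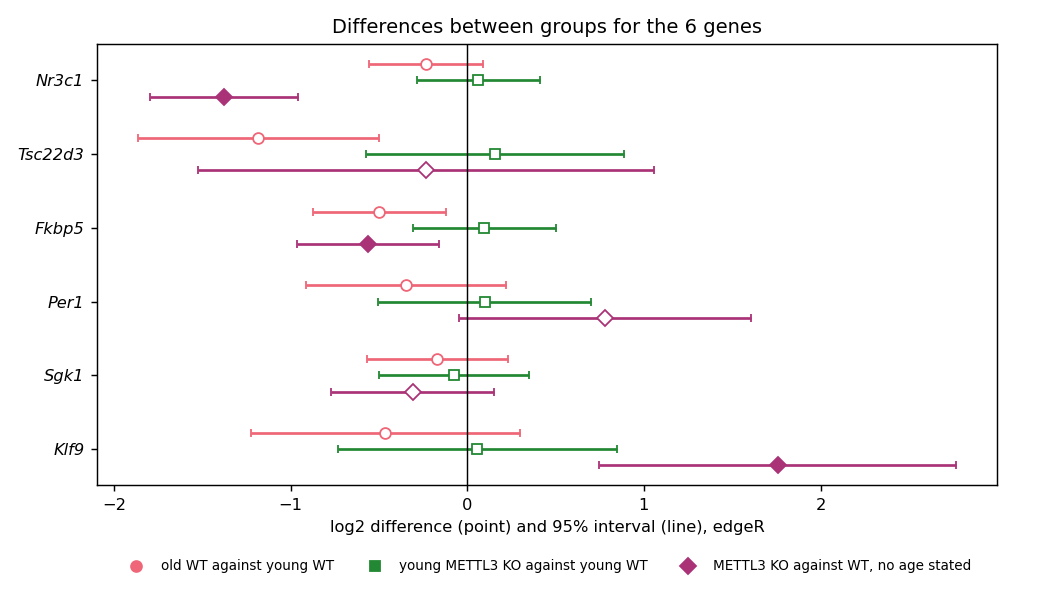
Log2 difference (horizontal axis) with its 95% interval from edgeR for each gene (vertical axis) in the 3 comparisons; filled markers passed an adjusted p of 0.05, open markers did not. With age all 6 points lie below 0 and none is filled; without an age Nr3c1 and Fkbp5 are filled below 0 and Klf9 above it.

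With age, then, 0 of the 6 genes passed in edgeR, where 0.253% of 14228 genes were called (36 genes; 0.127% higher and 0.127% lower). Of the 6, 0 had old libraries wholly apart from young ones, beside 9.78% of all genes (4.13% lower). All 6 log2 differences were below 0, with a median of -0.40 beside 0.0063 over all genes tested. At an unadjusted p under 0.05, 2 of the 6 (Tsc22d3 and Fkbp5) stood beside 12.1% of all genes. In young KO, 0 of 6 passed, as did 0% of all genes, and 0 of 6 had an unadjusted p under 0.05 (0.618% of all genes); DESeq2 called none of the 6. None of the 6 had KO wholly apart from WT, beside 9.26% of all genes (4.55% higher, 4.71% lower). Without an age 3 of 6 were called, 2 lower and 1 higher, a share close to the 53.9% of all genes. At an unadjusted p under 0.05 the share was again 3 of 6, beside 59.6% of all genes, and for the interaction 2 of 6, beside 47.1%. The age and young KO comparisons share the young WT libraries.

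The genes most like each member over the 10 libraries with an age were ranked by Pearson's r of log2 CPM among 10734 genes of at least 5 CPM, as a description with no test. For Tsc22d3 they were AC132455.1 (r = 0.989, Spearman 0.903), Zfp36l2 (0.98 and 0.927) and Pik3ip1 (0.964 and 0.939). Zfp36l2 encodes a protein that destabilises mRNAs with AU-rich elements, and AC132455.1 is an antisense transcript that overlaps it on chromosome 17, so reads of this pair may be shared. Pik3ip1 restrains PI3 kinase. Zfp36l2 was 301.0, 1019 and 1093 CPM in young WT, 358.8, 318.3, 226.0 and 220.3 in old WT, with 763.2, 1102 and 777.5 in young KO. Young WT replicate 1 thus stood with the old libraries for Zfp36l2 as it did for Tsc22d3. The age difference of Zfp36l2 was -1.52 (adjusted p = 0.257), and without young WT replicate 1 it was called (-1.91, adjusted p = 0.00295). Over the 6 libraries without an age, which the ranking did not use, r with Tsc22d3 was 0.914 for Zfp36l2 and 0.672 for Pik3ip1.

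**Figure D3:**
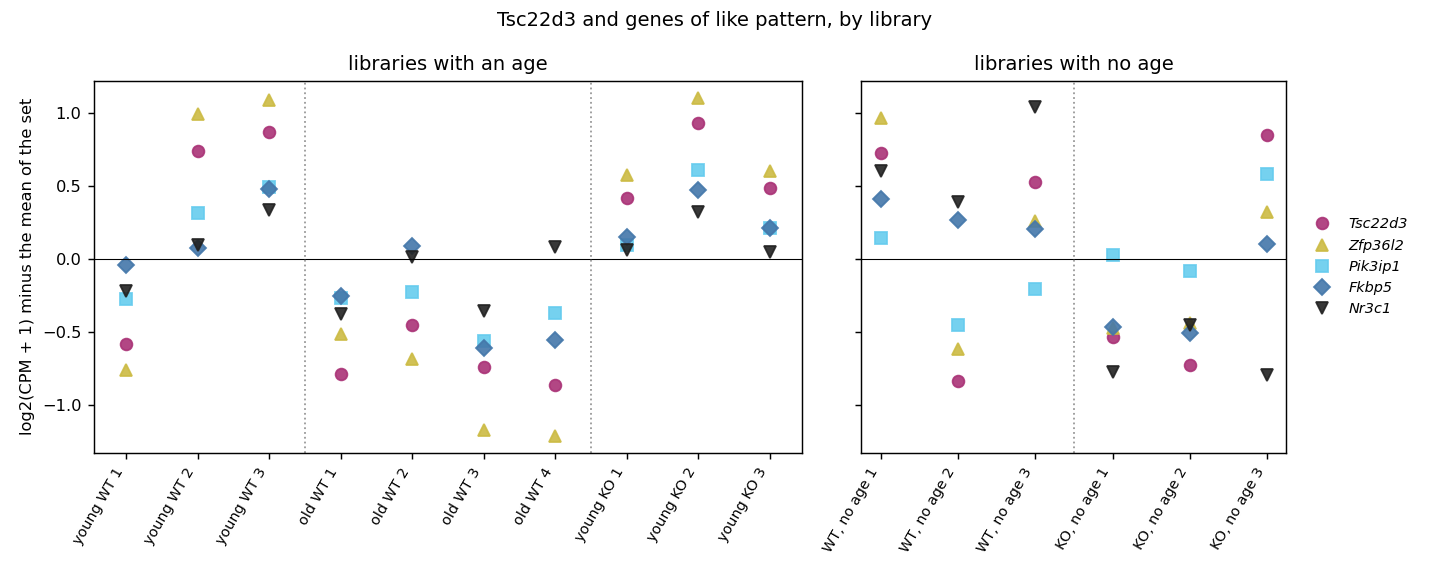
Log2(CPM + 1) minus its mean over the set (vertical axis) for Tsc22d3, Zfp36l2, Pik3ip1, Fkbp5 and Nr3c1 in each library (horizontal axis); dotted lines part the groups. Young WT replicate 1 lies with the old WT libraries for Tsc22d3 and Zfp36l2, and in the set without an age WT replicate 2 is the lowest WT library for both.

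For Nr3c1 the most alike were the T cell receptor segment Trbv26 (r = 0.966), A430035B10Rik (0.94) and Arhgap15 (0.93). For Fkbp5 they were Atg3 of autophagy (0.972), Smc6 of the SMC5/6 complex (0.955) and the ubiquitin ligase scaffold Cul1 (0.953). Per1 was closest to Hist1h1c (0.956), Gtf2h5 (0.953) and Ppwd1 (0.949), and Sgk1 to Gadd45a (0.97), Rchy1 (0.951) and Map3k15 (0.944). For Klf9, whose counts are low, the highest were Smox (0.897), Mrpl41 (0.895) and Alkbh7 (0.894). Over the 6 libraries without an age, Trbv26 (0.97) and Arhgap15 (0.992) were again close to Nr3c1, while the 3 genes named for Per1 were not close to it (-0.634 to 0.0028). Among the members, Tsc22d3 and Fkbp5 had an r of 0.863 over the 10 libraries (0.627 after group means were removed), Nr3c1 and Tsc22d3 0.788 (0.697), and Nr3c1 and Sgk1 0.187 (0.0189). These values share libraries and groups, so they describe these 10 libraries only.

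A wider list of 26 other glucocorticoid-induced genes did not move to one side with age. Of 16 tested, 8 were above and 8 below 0, with a median of 0.05 and 0 called; without young WT replicate 1 the stress gene Ddit4 was called (-1.11, adjusted p = 0.00822; named after its value was seen). The smallest p belonged to Pik3ip1 (250.9 ± 64.9 CPM in young and 169 ± 17.3 in old WT, log2 difference -0.57 ± 0.17, adjusted p = 0.27), Sesn1, which restrains mTORC1 (0.21 ± 0.07, adjusted p = 0.319), and the apoptosis inhibitor Birc3 (0.29 ± 0.10, adjusted p = 0.324). In young KO 0 of 16 were called, with a median of 0.02 and Hif3a (0.48 ± 0.43), Glul (0.09 ± 0.09) and Sesn1 (-0.06 ± 0.08) first by p, each at an adjusted p of 1. The metallothionein genes Mt1 and Mt2, induced by glucocorticoids in many tissues, had at most 3 counts in any library with an age and could not be tested.

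Without an age, 11 of 21 tested genes of that list were called, 7 higher and 4 lower, beside 53.9% of all genes. The arrestin-like Arrdc2 (25.6 to 59.3 CPM, 1.21 ± 0.23, adjusted p = 0.00125) and the transcription factor Zbtb16 (0.628 to 4.96 CPM, 2.97 ± 0.60, adjusted p = 0.00176) rose, as did Anxa1 (2.40), Mertk (2.17), Rasd1 (1.91), Rhob (1.48) and Sesn1 (0.43). Zbtb16 also marks NKT cells. It is itself among the 3 of 9 tested NK, NKT and gamma-delta genes called higher, beside 29.9% of all genes. The antiproliferative gene Btg1 (731 to 386 CPM, -0.92 ± 0.19, adjusted p = 0.00217), Nfkbia, the inhibitor of NF-kB (-0.86), glutamine synthetase Glul (-0.81) and Errfi1 (-0.76) fell. The count was 6 without WT replicate 3 and 7 without KO replicate 1. Calls lost with 1 library left out were Mertk (WT replicate 2 or 3, KO 1; 0.0753 to 0.0845), Sesn1 (any WT, KO 1; 0.0635 to 0.187), Errfi1 (WT 3; 0.0713), Rasd1 (WT 1 or 3, KO 1 or 2; 0.0525 to 0.0916) and Rhob (any WT, KO 1 or 3; 0.0597 to 0.133). Other settings also ended calls: sex as a covariate for Mertk, Rasd1, Sesn1 and Rhob, no filter for Sesn1 and Rhob, and unscaled library size for Errfi1 (adjusted p 0.0558 to 0.292).

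Genes that chaperone the receptor, the Hsp90 machinery, were all tested and 0 of 15 were called with age (median -0.02) or in young KO (median 0.05). Those with the smallest p for age were Stub1 (0.26 ± 0.14), Ppid (-0.12 ± 0.08) and Hspa4 (-0.10 ± 0.08), at adjusted p of 0.484 to 0.622; without old WT replicate 3 Stub1 was at 0.11. Without an age 3 of 15 fell, beside 24% of all genes: Hsp90aa1, which encodes inducible Hsp90 (480.9, 395.7 and 615.0 CPM in WT, 182.3, 316.7 and 250.7 in KO, -0.99 ± 0.22, adjusted p = 0.00314), the cyclophilin Ppid (-0.52 ± 0.15, adjusted p = 0.0131) and Dnaja1 (-0.45 ± 0.17, adjusted p = 0.0444). That count was 1 without WT replicate 1, 5 without KO replicate 2, 11 without KO replicate 3 and 9 with no filter on low counts. Ppid lost its call without WT replicate 1 (0.0557) and Dnaja1 without WT replicate 1 or 3 or KO replicate 1 (0.0672 to 0.145). Dnaja1 also lost it with unscaled library size, the 1 CPM filter and sex as a covariate (-0.19, adjusted p = 0.394).

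Coregulators, which link the receptor to chromatin, were likewise uncalled with age (0 of 16, median 0.0057) and in young KO (0 of 16, median -0.02). For age Nrip1 (-0.36 ± 0.14), Hdac2 (-0.16 ± 0.07) and Hdac6 (0.31 ± 0.17) had the smallest p, at adjusted p of 0.371 to 0.47; without old WT replicate 3 Nrip1 was at -0.23 and Hdac6 at 0.16. Without an age 13 of 16 were called, 10 lower and 3 higher, with a list median of -0.54 beside 0.08 over all genes, of which 24% were called lower and 29.9% higher. Med14, the Mediator scaffold subunit, was 194.6, 178.8 and 241.0 CPM in WT and 37.0, 46.1 and 38.8 in KO (-2.33 ± 0.17, adjusted p = 4.11e-05). The corepressor Nrip1 fell by 2.12 on the log2 scale, the steroid receptor coactivators Ncoa2 by 1.39, Ncoa1 by 1.37 and Ncoa3 by 0.87, the corepressor Ncor1 by 1.18 and the acetyltransferase Ep300 by 1.18. Med1 (-0.56), Hdac2 (-0.52) and Arid1a (-0.42) also fell, while Hdac6, which deacetylates Hsp90 (1.13), Crtc2 (0.70) and Smarca4 (0.43) rose. The Arid1a call was lost without WT replicate 1 or 3 or KO replicate 1 (0.0591 to 0.101) and the Smarca4 call without any WT replicate or KO replicate 1 or 3 (0.107 to 0.174). Unscaled library size ended the Med1 (0.0522) and Arid1a (0.137) calls, the 1 CPM filter that of Arid1a (0.0576), and no filter that of Smarca4 (0.282).

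Genes of local steroid handling included Hsd11b1, whose enzyme regenerates active glucocorticoid, and H6pd, which supplies its cofactor. With age 0 of 7 tested were called and the median was 0.20. Hsd11b1 was 26.5, 27.0 and 24.8 CPM in young WT and 39.7, 31.7, 32.9 and 37.0 in old WT, with no overlap (0.44 ± 0.12, adjusted p = 0.223; 5.65% of all genes lay wholly higher). H6pd was 135.6 to 141.0 against 146.3 to 199.2 CPM, also without overlap (0.30 ± 0.12, adjusted p = 0.353), and the drug pump gene Abcb1b differed by 0.60 ± 0.38 (adjusted p = 0.538), or by 0.26 without old WT replicate 3. In young KO 0 of 7 were called (median 0.05). Without an age 5 of 7 were called, beside 53.9% of all genes: H6pd (237 to 530 CPM, 1.16 ± 0.15, adjusted p = 0.000193), the mitochondrial reductase Fdxr (1.48), Hsd11b1 (39.4 to 65.2 CPM, 0.73 ± 0.16, adjusted p = 0.00299) and the side chain cleavage enzyme Cyp11a1 (1.48) rose, and Fdx1 fell (-0.63, adjusted p = 0.0487). The Fdx1 call was lost without any WT replicate or KO replicate 1 or 3 (0.0581 to 0.129) and in 5 further settings (0.0543 to 0.102). Of the other 8 genes of the list, Hsd11b2, whose enzyme inactivates glucocorticoid, had at most 4 counts in any library and Nr3c2, the mineralocorticoid receptor, at most 13.

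Clock genes were listed because Per1 belongs to the clock. With age 0 of 16 tested were called (median 0.06), with the repressor Bhlhe40 (2.05 ± 0.75, adjusted p = 0.338), Rora (0.45 ± 0.19, 0.371) and Nr1d1 (0.38 ± 0.16, 0.379) first by p. Bhlhe40 was 7.85 CPM in old WT replicate 3, the library with the most RNA of other cells, and without it the difference was 1.03 (adjusted p = 0.492). In young KO 0 of 16 were called (median -0.05). Without an age 7 of 18 were called, beside 53.9% of all genes: Clock (37.5 to 13.97 CPM, -1.43 ± 0.20, adjusted p = 0.000266), Nr1d2 (-0.90), Cry1 (-0.79) and Arntl (-0.41) fell, and Bhlhe41 (3.25), Hlf (2.34) and Per3 (0.99) rose. The Per3 call was lost without any WT replicate or KO replicate 1 or 2 (0.0571 to 0.116) and the Arntl call without WT replicate 1 or 3 or KO replicate 1 (0.0653 to 0.0999). Further settings ended the Per3 call 3 times, with 0.47 (adjusted p = 0.347) under sex as a covariate, and the Arntl call 5 times (0.0508 to 0.125).

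**Figure D4:**
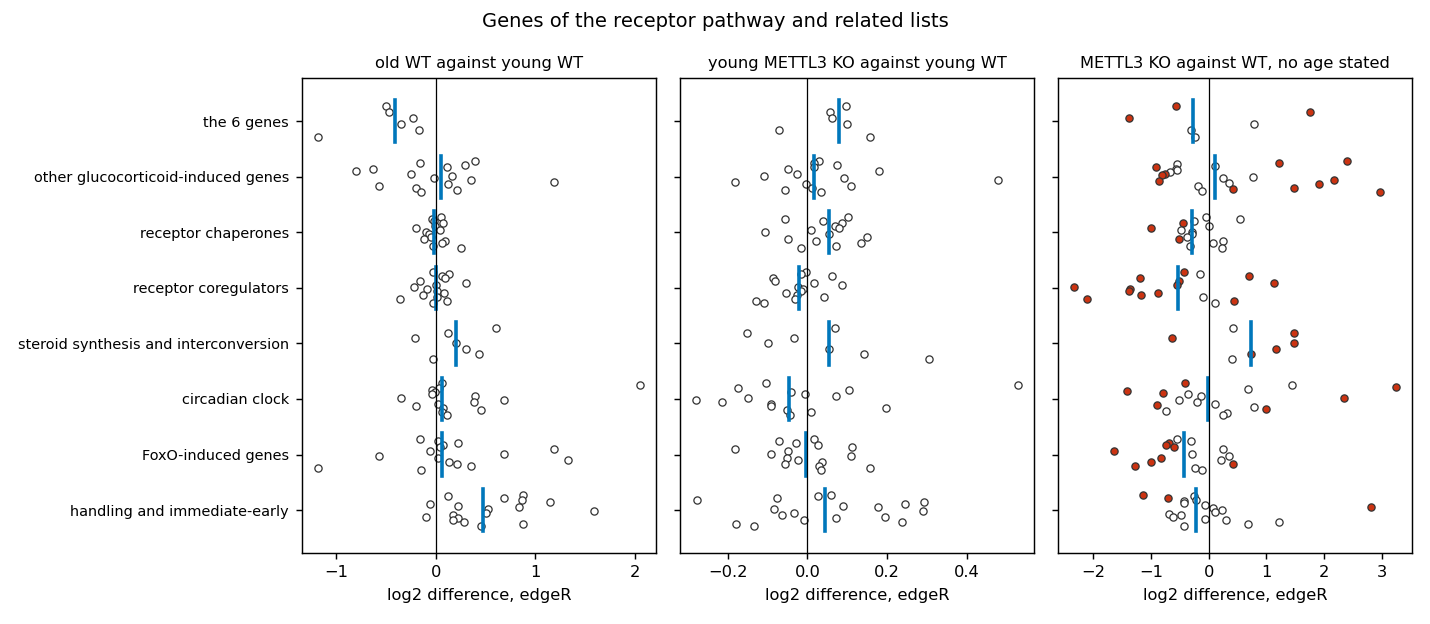
Log2 differences from edgeR (horizontal axes, on different scales in the 3 panels) for tested genes of 8 lists (vertical axis); filled points passed an adjusted p of 0.05 and blue bars are list medians. No point is filled for age or young KO; without an age 13 of 16 coregulators and 3 of 15 chaperones are filled.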

How the data were processed

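RNA of sorted DP thymocytes was counted per gene in 16 libraries; per the labels, Trizol and a column kit gave the RNA, and libraries followed a BGI protocol. HISAT2 2.0.5 and mm10 are named in the submitters' processing notes. How reads were assigned to genes and strands is not given in the sources used here. Raw read counts are what the deposited tables hold, and their 5 summary lines were left out of library sizes. Gene symbols, positions and exon lengths came from GENCODE M21 on mm10, and 55154 of 55335 and 54409 of 54532 identifiers matched a symbol.

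Counts were filtered by filterByExpr, scaled by TMM and tested over all genes with edgeR 4.0.16 (R 4.3.3, robust quasi-likelihood, Benjamini-Hochberg, two-sided, threshold 0.05). Age and young KO came from 1 fit of 10 libraries, KO without an age from 6, and the interaction from 12, filtered and scaled together. The sets differ in alignment and gene list, so levels were compared only within a set. Members and lists were chosen with earlier results of these data known. Named are the 6 members, the called genes of each list described (or the 3 with the smallest p where fewer were called) and the 3 genes most like each member; 1 called list gene is not reported here. Alternatives were DESeq2 1.42.0, limma-voom (limma 3.58.1), size factors from DESeq2, unscaled library size, no filter, 1 CPM in 3 libraries, the replicate number as a block, sex as a covariate, the compared groups alone and each library left out. On simulated counts, 2-fold changes were recovered in 88% (age), 83% (young KO), 65% (KO without an age) and 43% (interaction) of 100 genes each. In the same order, 1.5-fold changes were recovered in 57%, 40%, 7% and 1%. Only 200 genes were changed there, while 53.9% of the genes tested were called in KO without an age. Recovery with so large a share of changed genes was not tested, so the rates describe the simulated setting only. Replicate pairs differed by more than counting noise (chi-square per degree of freedom 3.2 to 72.5 in 18 pairs). Python 3.11.15, pandas 2.3.3, scipy 1.17.1 and matplotlib 3.10.9 made tables and figures.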

Additional observations from a re-analysis of the deposited data

Results flagged for a closer look

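The KO difference was unequal between the set without an age and the young libraries for 2 of the 6 genes, by the interaction test in edgeR. For Nr3c1 the difference of differences was -1.27 ± 0.24 (adjusted p = 0.00111): the gene fell by 1.38 without an age and differed by 0.06 in young libraries, lower in 3 of 3 KO libraries in the first set. For Klf9 the interaction was 1.87 ± 0.58 (adjusted p = 0.021), beside 1.76 without an age and 0.06 in young libraries in the separate fits. Klf9 was higher in 3 of 3 KO libraries in the first set. The same test called 36.9% of all genes. Stated age, the share of entries in genes and the Mettl3 difference also set the 2 sets apart. So did unaligned entries, at 0.577% to 0.826% of all entries with an age and 50.5% to 52.2% without. By Xist and Y-linked reads, young WT and young KO each held 1 female library of 3. Without an age, WT held 0 of 3 and KO 2 of 3. These differences between the sets cannot be told apart here.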

How the results depend on the processing

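Gene totals limited Klf9, with 8 to 81 counts per library, and the spread among replicates limited Tsc22d3. Of all genes, 36 were called with age, and 85 with no filter, 153 in DESeq2, 61 with the replicate block and 11 in the 2 groups alone; 8 to 59 were called with 1 library left out. Tsc22d3 with age passed in DESeq2 (-1.19) and ranged from -1.52 to -0.94 with 1 library left out. In young KO 1 gene passed with no filter. With 1 library left out there, Nr3c1 ranged from -0.070 to 0.21, Tsc22d3 from -0.18 to 0.40, Fkbp5 from -0.0078 to 0.27, Per1 from -0.11 to 0.28 and Klf9 from -0.17 to 0.36; signs turned without young WT replicate 1 or 2 or young KO replicate 1 or 2. In KO without an age, sex as a covariate gave Tsc22d3 0.57, Per1 -0.081, Fkbp5 -0.20 and Sgk1 -0.70; no filter gave Sgk1 -0.48, and DESeq2 gave Per1 0.80. With 1 library left out, Fkbp5 ranged from -0.86 to -0.50, Per1 from -0.0072 to 1.012 and Sgk1 from -0.67 to -0.21. For the interaction, no filter gave Fkbp5 -0.75 and Per1 0.59, and sex as a covariate gave Tsc22d3 0.12. Leaving out 1 library gave Tsc22d3 -1.08 to 0.012, Fkbp5 -0.91 to -0.48, Per1 -0.058 to 0.96, Sgk1 -0.55 to -0.087 and Klf9 1.33 to 2.07. The causes were not tested. With age and 1 library left out, Rchy1 ranged from -0.14 to 0.015 and Alkbh7 up to 0.12.

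No pairing by replicate number was seen: same-numbered libraries deviated with r of -0.229 to 0.0869 in the set with an age and -0.125 to 0.0089 in the other. Differently numbered libraries with an age gave -0.197 to 0.324. With groups this small, such values cannot show whether the numbers pair the samples. With the replicate block the age count was 61, as above, and no member changed its call; 9 list genes lost a call without an age. Outside the members, 3 values turned sign, 6 gained and 87 lost a call among all list genes, and 116 list counts or medians moved, over all alternatives.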

Other observations

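Relatives of the 6 genes were read for comparison. With age 0 of 18 tested relatives were called. Tsc22d1, of the same family as Tsc22d3, was 46.8, 39.0 and 46.8 CPM in young WT and 58.6, 61.5, 66.7 and 55.8 in old WT. Its log2 difference was 0.46 ± 0.10 (adjusted p = 0.0976 in edgeR and 0.0066 in DESeq2), on the other side of 0 from Tsc22d3. The 2 groups did not overlap, beside 5.65% of all genes that lay wholly higher in old WT. Klf6 (-0.31 ± 0.10, adjusted p = 0.3) and Klf16 (0.33 ± 0.14, 0.371) followed by p. Without an age 9 of 19 were called in edgeR: Klf3 (-1.52), Klf6 (-1.52), Tsc22d2 (-1.01), Klf13 (-0.73) and Sgk3 (-0.69) fell, and Sgk2 (4.77), Fkbp2 (1.75), Per3 (0.99) and Fkbp8 (0.50) rose, beside 53.9% of all genes. The Sgk3 call was lost without WT replicate 3 (0.0636) and the Fkbp8 call without any WT replicate or KO replicate 1 or 3 (0.062 to 0.17) and with no filter (0.178).

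Genes induced by FoxO factors, which also act on Tsc22d3 (itself in this list), gave 0 calls of 16 with age (0.253% of all genes) and 8 of 16 without an age (53.9%). Among those, Irs2 (-1.65), Sesn3 (-1.28), Rictor (-0.83), Cited2 (-0.74), Ccng2 (-0.68) and Fbxo32 (-0.60) fell and Sesn1 (0.43) rose. The Fbxo32 call was lost without KO replicate 1 (0.0581) and with unscaled library size (0.0684); without KO replicate 2 Cited2 was at -1.12. Handling and immediate-early genes were summed at 1821 to 2319 CPM in old WT against 1505 to 1624 in young WT, with 16 of 18 tested genes above 0, a median of 0.48 and 0 called. Btg2 (0.87 ± 0.23, adjusted p = 0.231), Ier2 (0.50 ± 0.16, 0.289) and Egr1 (0.69 ± 0.23, 0.316; 0.45 without old WT replicate 3) had the smallest p, and DESeq2 called Btg2 (0.0136).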
